A study of Mus musculus with 2 samples.

Results

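The mitochondrial ribosomal protein genes are the nuclear genes for the proteins of the ribosome inside mitochondria. They were taken as all genes with a symbol made of Mrpl or Mrps and a number, provided that at least 1 of their annotated transcripts is coding. This gave 78 genes of 55536 annotated genes, of which 21901 have a coding transcript. By the known makeup of the particle, 51 of the 78 belong to the large subunit, among them Mrps30 and Mrps18a in spite of their symbols, and 26 belong to the small subunit. Mrps36 is in neither, since its protein is a part of the oxoglutarate dehydrogenase complex of the citric acid cycle. The genes lie on 17 chromosomes, with 11 on chromosome 11 and 8 on chromosome 17. Pseudogenes with such symbols, such as Mrpl23-ps1, have no coding transcript and are not counted.

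Mitochondria keep a small genome whose messages all encode proteins of the respiratory chain, and they translate these with a ribosome of their own. Its ribosomal RNAs come from the mitochondrial genome, but every one of its proteins is made in the cytosol and imported. Part of the proteins have relatives in the bacterial ribosome, and most of the others are found only in mitochondria. In brain, respiration supplies most of the energy for ion pumping and synaptic transmission, and inherited defects of this ribosome often affect the nervous system.

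The samples were left cerebral cortex of 2 male adult mice, aged 8 to 10 months, from which total RNA was sequenced. Both came from the cross of 5xFAD with CAST, and they are biological replicates 1 and 2 of 1 group, with 300 ng of RNA per library. The 5xFAD line carries mutated human transgenes of familial Alzheimer disease, driven by the neuronal Thy1 promoter, and CAST is a wild-derived inbred strain. Cortex without the transgenes was not analysed here, so no value below can be attributed to them. The libraries were made with ribosomal RNA depletion. On annotated genes, the expected counts summed to 33925221 in replicate 1 and 32380330 in replicate 2. All 6 markers each of excitatory neurons, astrocytes, oligodendrocytes and microglia were detected, that is, they reached a TPM (transcripts scaled by length and library) of 1 in each library.

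Each of the 78 genes passed this limit, beside 59.6% of all 21901 genes with a coding transcript. Their median level was 21.7 TPM, with an interquartile range of 14.9 to 29.6 TPM. The medians of the single animals were 21.8 TPM in replicate 1 and 22.6 TPM in replicate 2. The 13055 detected coding genes had a median of 15.1 TPM. The genes were thus of moderate level and close to each other: 69 of them had a mean between 10 and 50 TPM, 3 were above 50 TPM and 6 were below 10 TPM. The SD of log2 TPM across them was 0.81 in replicate 1 and 0.75 in replicate 2, beside 1.80 in either library for the detected coding genes. For the cytosolic ribosomal protein genes it was 0.95 and 0.92, and for the nuclear respiratory chain genes 1.04 and 1.03. In the kallisto-format table, the other deposited quantification, the SDs of the log2 of the mean TPM were nearer to each other: 0.70 for the mitochondrial, 0.76 for the cytosolic ribosomal protein genes and 0.85 for the respiratory chain.

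**Figure D1:**
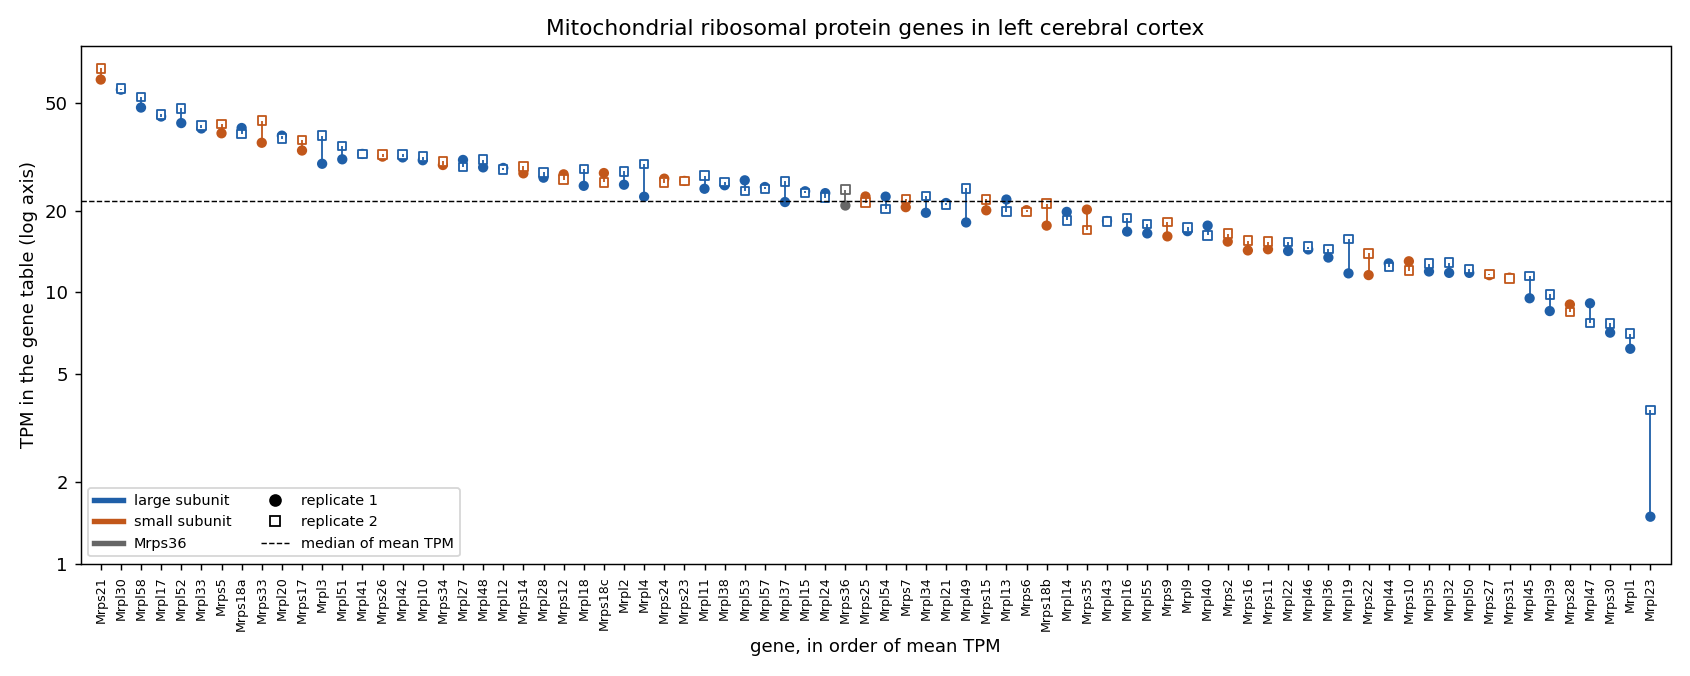
TPM in the gene table (y axis, log scale) of each of the 78 genes (x axis, in order of mean TPM), with replicate 1 as filled circles, replicate 2 as open squares and a line that joins them, coloured by subunit. Most genes sit in a narrow band around the dashed median of 21.7 TPM, and Mrpl23 stands below all others at 1.49 and 3.69 TPM.

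The highest level was that of Mrps21, a small subunit protein with a bacterial relative, at 60.95 TPM in replicate 1 and 67.04 TPM in replicate 2. Mrpl30, of the large subunit, followed with 55.94 and 56.48 TPM. Mrpl58, which is related to release factors and hydrolyses peptidyl-tRNA, had 48.06 and 52.48 TPM. The values of these 3 did not overlap. The next were Mrpl17 at 44.54 and 45.34 TPM, Mrpl52 at 42.13 and 47.68 TPM, and Mrpl33 at 40.24 and 41.27 TPM. Their neighbours in the order overlapped: Mrps5 had 38.63 and 41.81 TPM, Mrps18a 40.40 and 38.48 TPM, and Mrps33 35.64 and 43.03 TPM. Mrpl20, the last of the 10 highest, had 37.86 and 36.90 TPM. On the scale of all detected coding genes, Mrps21 stood at percentile 88.3 and Mrpl30 at percentile 86.4.

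At the low end, Mrpl23 was listed at 1.49 and 3.69 TPM. Mrpl1, the relative of the bacterial stalk protein L1, had 6.20 and 7.05 TPM. Mrps30, a mitochondria-specific protein of the large subunit, had 7.11 and 7.69 TPM. The values of these lowest genes did not overlap with each other. Mrpl47 had 9.12 and 7.70 TPM, Mrps28 9.03 and 8.47 TPM, and Mrpl39 8.54 and 9.84 TPM. Mrpl45, which tethers the ribosome to the inner membrane, had 9.52 and 11.48 TPM. The list of the 10 lowest was completed by Mrps31 with 11.34 and 11.26 TPM, Mrps27, an RNA-binding pentatricopeptide repeat protein, with 11.58 and 11.69 TPM, and Mrpl50 with 11.81 and 12.18 TPM. The middle of the order was held by Mrps25, with 22.59 and 21.45 TPM, and Mrpl54, with 22.56 and 20.32 TPM.

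The subunits did not stand apart in level. The large subunit had a median of 22.8 TPM and the small subunit 21.2 TPM, and the difference of the medians on the log2(TPM + 0.1) scale was 0.12 ± 0.03 (SD, n = 2). With 28695 and 27397 reads, the large subunit took 2.01 and 2.05 times the reads of the small subunit, which has 26 genes beside 51. The 46 proteins classed as conserved with bacteria and the 31 classed as mitochondria-specific had medians of 21.29 and 22.02 TPM. The second class includes Mrps18a and Mrps18b, which are related to bacterial protein S18, and Mrpl58, which is related to release factors. The difference between the 2 classes, -0.07 ± 0.02 (SD, n = 2), was small. It was 0.18 in the other deposited quantification, so no order can be given.

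By place in the particle, the 4 proteins next to the peptidyl transferase centre had a median of 28.2 TPM, with Mrpl16 the lowest at 17.8 TPM and Mrpl3 the highest at 33.9 TPM (means of 2 animals). The 3 proteins of the stalk that binds translation factors were alike, from 25.5 TPM for Mrpl11 to 31.2 TPM for Mrpl10. Mrps5, Mrps12 and Mrps24, which line the decoding site and the mRNA channel, lay between 25.8 and 40.2 TPM. The 7 proteins of the central protuberance spanned 14.6 TPM for Mrpl46 to 50.3 TPM for Mrpl58. In the gene table, the 6 proteins at the exit of the polypeptide tunnel spread the most, from 2.59 TPM for Mrpl23 to 44.9 TPM for Mrpl17, with a median of 12.6 TPM. In the other quantification that median was 23.4 TPM and Mrpl23 had a mean of 32.4 TPM. There the SD of log2 TPM was 0.71 for these 6, close to the 0.68 for the 4 next to the peptidyl transferase centre.

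Mammals have 3 paralogs related to bacterial protein S18, and they sit at different places of the particle. Mrps18a, of the large subunit, was the highest at 39.4 ± 1.4 TPM (SD, n = 2). Mrps18c, which takes the place of S18, had 26.5 ± 1.5 TPM, and Mrps18b had 19.4 ± 2.6 TPM. In the gene table the animals' values of the paralogs did not overlap. In the kallisto-format table Mrps18a had 43.8 and 34.2 TPM and Mrps18c 35.9 and 27.9 TPM, which overlap. Mrps18b was below both there, with 22.1 and 22.9 TPM. Mrps36 had 20.92 and 23.93 TPM, close to the median of the ribosomal proteins.

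The 5 mitochondrial ribosomal proteins with other symbols had a median of 27.4 TPM, from 10.6 TPM for Gadd45gip1 to 44.7 TPM for Aurkaip1, within the range of the 78 genes. The other lists of mitochondrial gene expression had lower medians. The median was 11.9 TPM for 14 translation factors, from Mtrf1, a release factor relative, at 2.92 TPM to Slirp, an RNA-binding protein, at 48.0 TPM. It was 7.71 TPM for 19 genes of ribosome assembly and ribosomal RNA modification, from Ybey at 1.69 TPM to the RNA helicase Dhx30 at 67.8 TPM. For 17 mitochondrial aminoacyl-tRNA synthetases it was 9.73 TPM, from Wars2 at 2.81 TPM to Lars2 at 33.1 TPM. Lars2 differed between the deposited quantifications, with a mean of 102 TPM in the kallisto-format table. For 7 genes of mitochondrial transcription the median was 7.15 TPM, from Mterf1b at 2.11 TPM to the polymerase Polrmt at 20.4 TPM. By median, the ribosomal protein genes thus lay above the lists of translation factors, assembly, synthetases and transcription. Single genes of these lists were high, and Dhx30 lay above Mrps21, the highest of the 78.

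The nuclear genes of the respiratory chain, the mitochondrial messages and the cytosolic ribosome were far higher. The 71 entries of the nuclear respiratory chain had a median of 115 TPM, and on the log2(TPM + 0.1) scale the mitochondrial ribosomal proteins lay 2.38 ± 0.002 (SD, n = 2) below them. This list has 1 symbol, Atp5o, with an additional entry listed at 0, and its highest gene was Atp5b at 747 TPM. The 76 cytosolic ribosomal protein genes had a median of 212 TPM, from Rpl27 at 18.1 TPM to Rpl41 at 754 TPM, and here the gap was 3.24 ± 0.05, or 9.44-fold. Only 3 of the 76 cytosolic genes lay below Mrps21. The mitochondrial ribosomal RNAs mt-Rnr1 and mt-Rnr2 were listed at 39815 and 50673 TPM, in libraries from which ribosomal RNA had been removed. The 13 mitochondrially encoded messages had a median of 2266 TPM, from mt-Nd6 at 254 TPM to mt-Co1 at 7188 TPM.

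**Figure D2:**
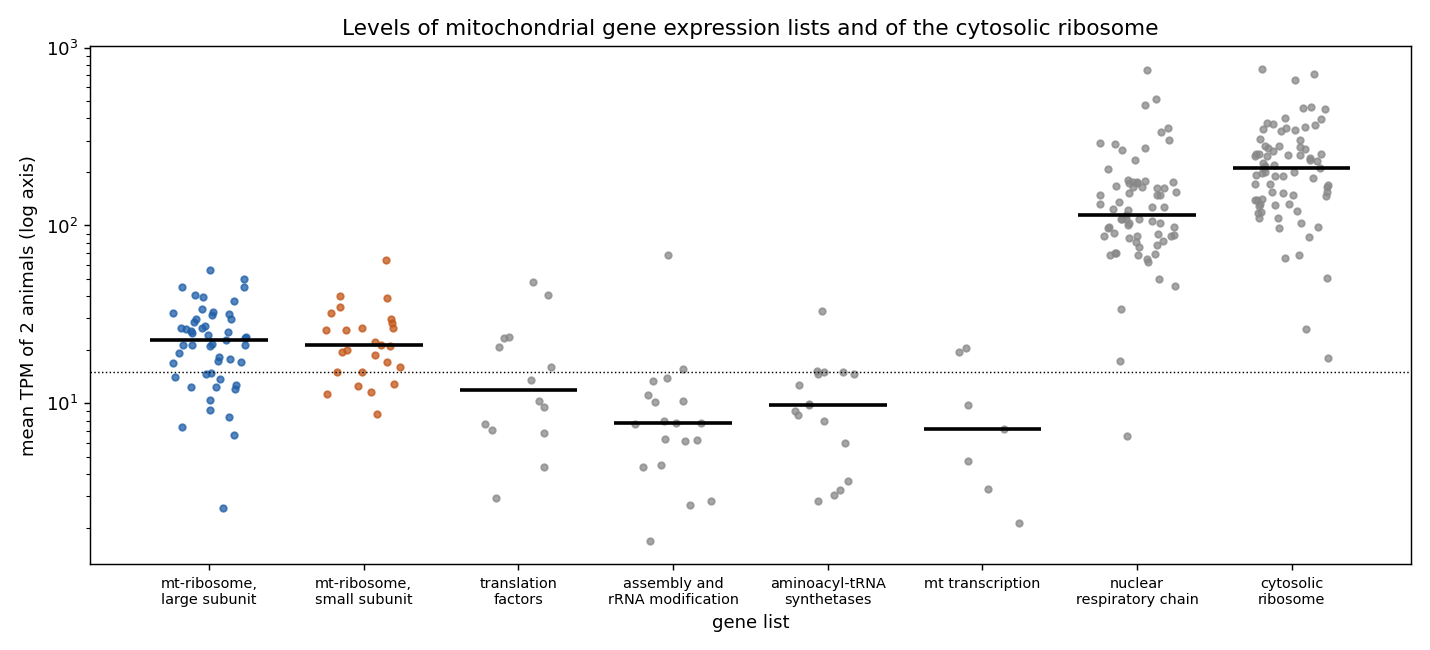
Mean TPM of 2 animals (y axis, log scale) for each gene of 8 lists (x axis), with black bars at the list medians and a dotted line at 15.1 TPM, the median of the detected coding genes. The medians of both subunits of the mitochondrial ribosome, 22.8 and 21.2 TPM, lie above the line. Those of the lists of factors lie below it, and those of the respiratory chain and cytosolic ribosome lie at 115 and 212 TPM. An entry listed at 0 is not drawn.

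In reads, the 78 genes together took 43270 counts in replicate 1 and 41083 in replicate 2. This was 0.128% of the counts on annotated genes in replicate 1 (95% Clopper-Pearson interval 0.126% to 0.129%) and 0.127% in replicate 2 (0.126% to 0.128%). The intervals overlap, and they cover counting error only. The cytosolic ribosomal proteins took 0.707% and 0.654%, and their intervals, 0.704% to 0.710% and 0.651% to 0.657%, did not overlap. A single gene of the mitochondrial ribosome had a median of 501 reads per library, with a range of mean counts from 93.5 to 1378.

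The value of Mrpl23, a protein at the tunnel exit, differed between the deposited tables, and so did that of its pseudogene. The authors deposited a gene table in the RSEM format and a transcript table in the kallisto format. In the gene table, Mrpl23 (chr7:142532686-142540747, plus strand, mm10) had 1.49 and 3.69 TPM, and its processed pseudogene Mrpl23-ps1 (chr2:74591330-74591909, minus strand) had 26.90 and 26.75 TPM. In the kallisto-format table, Mrpl23 had 32.9 and 31.8 TPM and the pseudogene was listed at 0 in both libraries. The sums of gene and pseudogene, 28.4 and 30.4 TPM in the gene table and 32.9 and 31.8 TPM in the other, were close. The pseudogene is 580 bases long, and it equals the coding transcript Mrpl23-201 over an unbroken run of 540 bases, from base 151 to base 690 of 692. The whole coding part of that transcript, bases 167 to 604, lies in the run, so a read from within it fits both genes. To show this, 60 bases from the middle of the coding part (bases 355 to 414) are printed below as they stand in the pseudogene at chr2:74591645-74591704 on the minus strand, with no letter different in Mrpl23-201.

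Mrpl23-ps1 and Mrpl23-201: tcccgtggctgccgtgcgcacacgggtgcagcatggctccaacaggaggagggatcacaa

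At the 2-fold limit, Mrpl23 was the only gene of the 78 that differed between the tables in both libraries. It was higher in the kallisto-format table, where 0.643% of 14317 compared genes were so, and 0 of the 78 were lower, where 0.237% of all were. The ratio was 22.1 in replicate 1 and 8.63 in replicate 2. For the other 77 it lay between 0.859 and 1.58 in replicate 1 and between 0.744 and 1.40 in replicate 2.

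**Figure D3:**
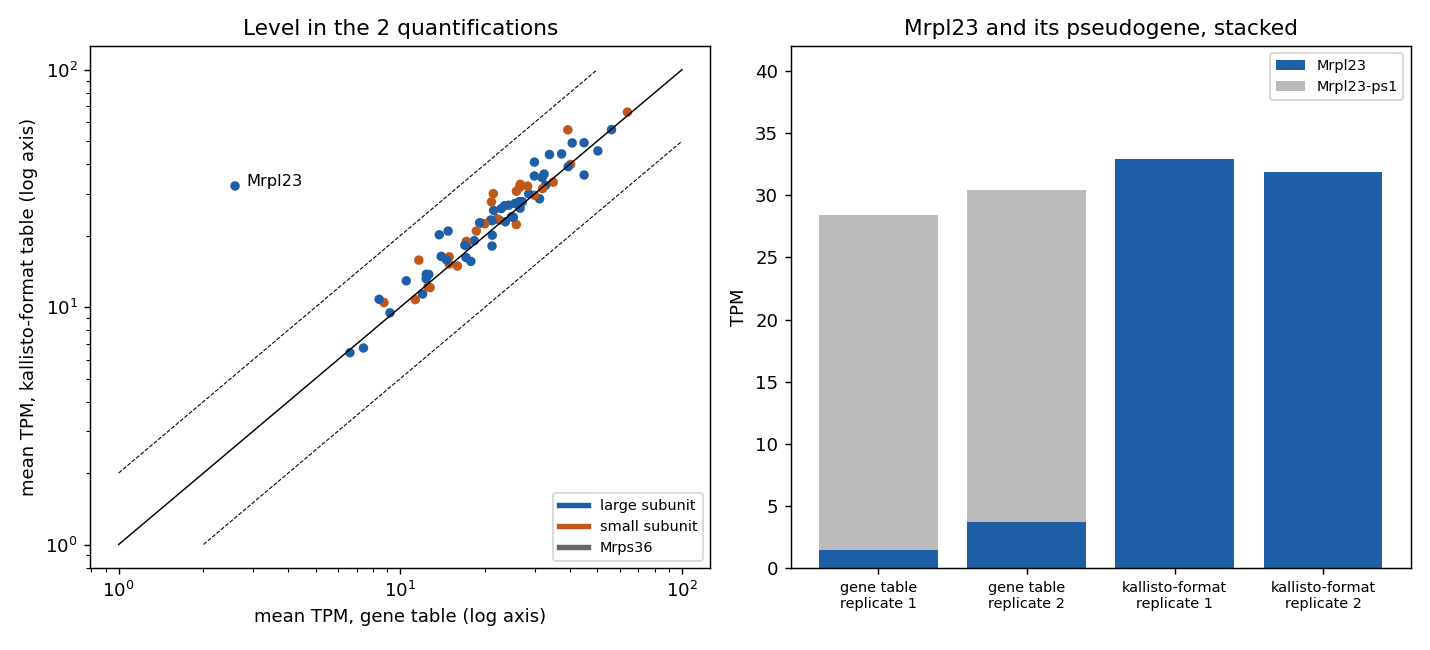
Left, mean TPM of 2 animals of each of the 78 genes in the gene table (x axis, log scale) and the kallisto-format table (y axis, log scale), with the line of equal values and dashed lines at 2-fold; right, TPM of Mrpl23 stacked with Mrpl23-ps1 in each table and library. Mrpl23 alone leaves the band, and its bar is 1.49 and 3.69 TPM in the gene table and 32.9 and 31.8 TPM in the other, while the stacked heights lie between 28.4 and 32.9 TPM.

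Other genes of the set share sequence too, and their levels were closer between the tables. Of the 78 genes, 20 had at least 10% of their 31-base words in the sense sequence of another annotated gene, 17 had as much in antisense, and 22 had none on either strand. Such words were not counted for the other coding genes, so these counts have no background. The strand setting is not given, so it is not known whether reads from a gene and its antisense partner were told apart. For Mrps33 the processed pseudogene Gm5776 had 12.93 and 13.83 TPM beside 35.64 and 43.03 TPM of the gene. Beside Mrps5, at 38.63 and 41.81 TPM, Gm13328 had 3.21 and 4.23 TPM, and beside Mrps10, at 13.03 and 12.04 TPM, AC154457.3 had 2.44 and 2.90 TPM. All words of Mrpl53 lie also in the overlapping gene Gm42688, which had 2.42 and 2.85 TPM beside 25.91 and 23.69 TPM. In reads, Gm42688 had 213.62 and 224.44 beside 386.53 and 315.04 of Mrpl53. How the shared reads should be divided cannot be told from these tables, so the levels of these genes are uncertain.

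A large part of several genes was assigned to transcripts that the annotation does not class as coding. In the deposited transcript table, coding transcripts held 74.6% and 74.5% of the summed TPM of the 78 genes. Transcripts with a retained intron held 12.03% and 12.75%, other processed transcripts 7.66% and 7.38%, and targets of nonsense-mediated decay 5.72% and 5.36%. In 18 genes, or 23.1%, the noncoding share was at least 50%, beside 9.35% of the 13055 detected coding genes, and the median shares were 14.2% and 10.1%. In 13 of the 78 genes all TPM fell on coding transcripts, as in 3196 of the 13055 detected coding genes. Some of the 13, such as Mrpl34 and Mrps28, have no noncoding transcript in the annotation.

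Mrps16 led, with 91.3% and 91.1% of its TPM on a processed transcript of 801 bases. Mrps26 had 90.6% and 90.9% on a transcript with a retained intron. Mrps14, of the head of the small subunit, had 88.1% and 88.6% on a target of nonsense-mediated decay. In all 3 the animals lay within 1 percentage point of each other. Mrpl15 had 92.2% and 87.9%, mainly on a processed transcript of 910 bases and on a decay target of 497 bases. Mrpl57 had 88.6% and 85.8% on a retained-intron transcript of 519 bases, and Mrpl32, whose protein is matured by the m-AAA protease, 88.2% and 86.0% on noncoding forms. Shares above 80% in both animals were also found in Mrps25 (88.9% and 84.3%), Mrpl51 (85.9% and 84.5%) and Mrps24 (80.1% and 80.5%). The other 9 of the 18 had lower shares. Mrps11 had 65.0% and 70.9%, Mrpl19 60.3% and 66.8%, and Mrpl3 62.9% and 62.4%. Mrpl23 had 73.2% and 53.8%, Mrps35 62.7% and 55.2%, and Mrpl47 64.0% and 50.4%. Mrpl13 had 64.6% and 49.3%, Mrpl58 55.5% and 56.4%, and Mrps5 49.0% and 55.6%, so that Mrpl13 and Mrps5 passed the limit only as means.

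The count differed by measure, and TPM weighs short transcripts more than read counts do. By share of expected counts, 11 of the 78 genes, or 14.1%, were at 50% or more, beside 5.19% of the detected coding genes. By the kallisto-format quantification there were also 18, of which 15 were among the 18 of the gene table. In all 3 readings 8 genes were above the limit: Mrps16, Mrps26, Mrpl15, Mrps14, Mrpl57, Mrpl32, Mrpl51 and Mrps24. Many such forms share most of their exons with a coding transcript, and short reads leave the division among them to the model of the program.

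**Figure D4:**
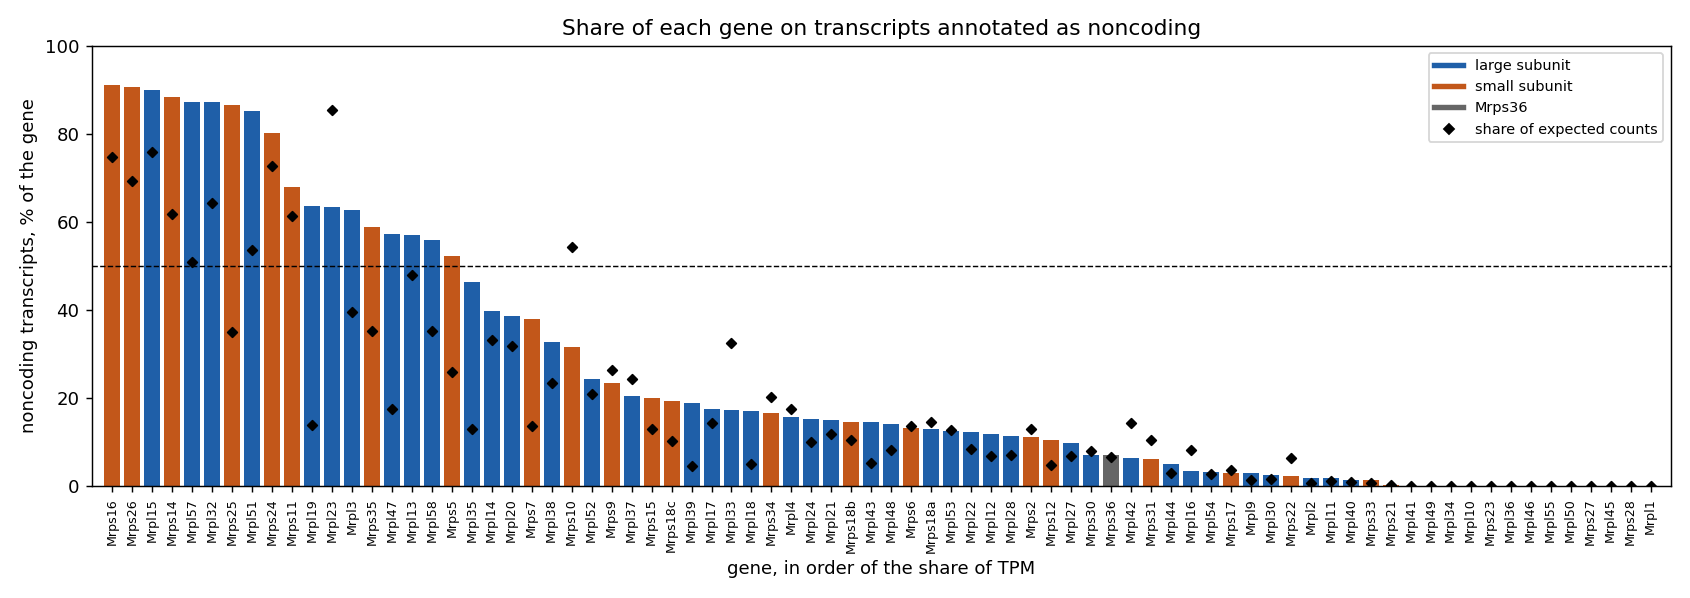
Share of each gene on transcripts annotated as noncoding (y axis, percent) for the 78 genes (x axis), with bars for the share of TPM as the mean of 2 animals, diamonds for the share of expected counts and a dashed line at 50%. By TPM 18 bars reach the line, while 11 diamonds do, and Mrps16, Mrps26 and Mrpl15 are at the left end.

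Between the animals, the genes of the mitochondrial ribosome had near-equal levels, as most detected coding genes did. A gene was called different where the log2 ratio of replicate 2 over replicate 1, scaled by the effective library sizes of edgeR, was at least 2-fold, 10 reads were present in a library and equal levels fell outside the exact binomial interval (Clopper-Pearson, error rate 1 in 1000) of how its reads were divided. Of the 78 genes, 0 were called, beside 1.22% of 19484 genes and 27 of the 13055 detected coding genes. At any fold, 0 of the 78 had equal levels outside this interval, beside 8.76% of the 19484. With the 95% interval there were 9, or 11.5%, beside 26.2% of all, and of these 6 were higher in replicate 1 and 3 in replicate 2. These intervals hold counting error only, and a difference between single animals has no replicate check. In tissue, fewer cells of a type and less RNA per cell cannot be told apart.

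All 78 log2 ratios were smaller than 0.5 in size, and 74, or 94.9%, were smaller than 0.25. Of 7983 coding genes with a mean count of 100 to 1500, 86.9% were smaller than 0.25. The median ratio was -0.06, with 54 genes negative and 24 positive, beside -0.001 for all genes with at least 10 reads. With spike-ins as the scale the median was 0.02, with 35 genes negative and 43 positive, and as a ratio of TPM it was 0.06, with 26 negative and 52 positive. The direction thus turns with the scale. The median of all genes was 0.08 with spike-ins, and that of detected coding genes was 0.12 for TPM. The members lay 0.06 below all genes with TMM, and by construction by as much with any other single factor per library. In the kallisto-format table they lay 0.06 below and as a ratio of TPM 0.07 below.

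**Figure D5:**
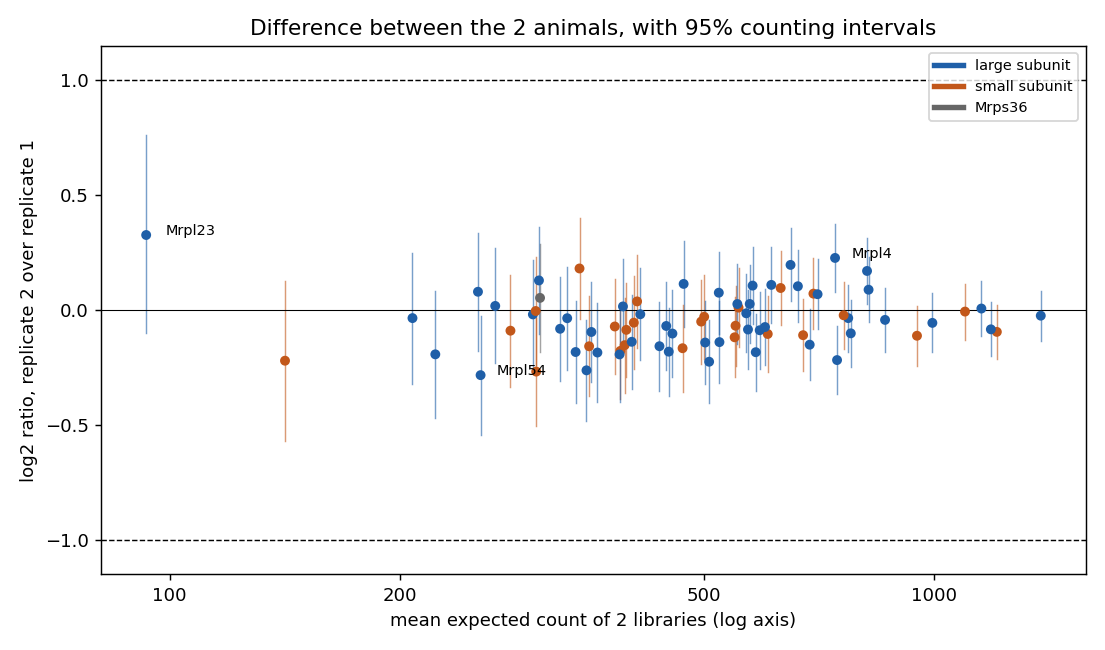
Log2 ratio of replicate 2 over replicate 1 (y axis) against the mean expected count (x axis, log scale) for the 78 genes, coloured by subunit, with 95% counting intervals as vertical lines and dashed lines at 2-fold. All points lie between -0.28 for Mrpl54 and 0.33 for Mrpl23, within the dashed lines.

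The largest ratio was that of Mrpl23, at 0.33 (95% interval -0.10 to 0.76) from 83.56 and 102.74 reads. Summed with Mrpl23-ps1, which had 322.44 and 286.26 reads, it was -0.03. Among the genes with a mean of at least 100 reads, Mrpl54 had 283 and 227 reads and a log2 ratio of -0.28 (-0.54 to -0.03). Mrps18c had 333 and 270 reads and -0.27 (-0.51 to -0.03). For Mrpl53 the ratio was -0.26 (-0.48 to -0.04), and summed with Gm42688, which holds all of its words, it was -0.12 (-0.29 to 0.05). Mrpl4 was the largest in the other direction, with 692 and 791 reads and 0.23 (0.08 to 0.38), and Mrpl43 had 553 and 462 reads and -0.22 (-0.41 to -0.04). All of these lie far inside the 2-fold limit.

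The cytosolic ribosome and the respiratory chain had medians below 0 as well. Of the cytosolic ribosomal proteins, 69 of 76 were negative, with a median of -0.14, and all 13 mitochondrial messages were negative, with a median of -0.23. The nuclear respiratory chain genes had a median of -0.06, and 0 genes of these 3 lists were called. The lists of mitochondrial translation lay on either side of 0, with medians of -0.02 for the factors, 0.03 for assembly, 0.06 for the synthetases and 0.07 for transcription, and 0 of their genes were called. The same libraries differed in other genes: all 10 choroid plexus markers were called higher in replicate 1, with a median of -1.93, and 4 of 10 immediate early genes, Fos, Egr2, Nr4a1 and Arc, were called higher in replicate 2. The summed choroid plexus level was 563 TPM in replicate 1 and 110 TPM in replicate 2, of which most was Ttr, at 534.50 and 101.22 TPM. Markers of glia were lower in replicate 2 on the same scale, without calls: all 6 of astrocytes (median -0.15), all 6 of oligodendrocytes (-0.12) and all 6 of microglia (-0.17). The 6 markers of excitatory neurons had a median of 0.03. The part of choroid plexus, glia or immediate early genes in the small shifts of the ribosomal genes was not tested.

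The starts of these genes share sequence that was not used to choose them. Windows from 250 bases before to 50 bases after the start, from RefSeq on GRCm38.p6, were found for 69 of the 78 genes, 75 windows in all. The motif of the ETS family of transcription factors, which includes GABPA (also called NRF2), known for its role in nuclear genes of mitochondria, was searched as CCGGAA on both strands. It was present in 43 of the 75 windows, or 57.3%, beside 14.9% of all 32851 windows and 18.7% of those of coding genes. For the cytosolic ribosomal proteins the share was 48.5%, and for the nuclear respiratory chain 41.3%. In these 75 windows there were 61 matches at 58 distinct places, since windows of the same gene can overlap. They had a median first base 17 bases before the start, and 59.0% of them began in the last 100 bases before the start, beside 47.8% of the matches in all windows. The median level was 26.1 TPM for the 40 of 69 genes with a match and 19.9 TPM for those with a window and no match. Whether the level goes with the match was not tested.

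Below, the 120 bases before the start are printed, 5′ to 3′ on the strand of the gene, with CCGGAA or its reverse complement in capitals. They are from Mrpl43 (chr19:45006443-45006562, minus strand), the gene with the most matches in this stretch, 4 of the 5 other genes with a pair, namely Mrpl22 (chr11:58171544-58171663, plus), Mrpl51 (chr6:125192080-125192199, plus), Mrpl53 (chr6:83108988-83109107, plus), Mrps27 (chr13:99344666-99344785, plus), and from Mrpl30 (chr1:37890357-37890476, plus), the second in level.

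Mrpl43: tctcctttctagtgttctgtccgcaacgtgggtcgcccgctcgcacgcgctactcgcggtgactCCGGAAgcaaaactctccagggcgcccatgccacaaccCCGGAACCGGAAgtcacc

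Mrpl22: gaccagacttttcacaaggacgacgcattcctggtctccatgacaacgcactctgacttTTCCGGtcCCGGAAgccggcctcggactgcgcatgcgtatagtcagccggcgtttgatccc

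Mrpl51: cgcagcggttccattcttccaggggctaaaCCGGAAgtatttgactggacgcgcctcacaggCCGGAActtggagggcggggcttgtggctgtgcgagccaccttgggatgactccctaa

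Mrpl53: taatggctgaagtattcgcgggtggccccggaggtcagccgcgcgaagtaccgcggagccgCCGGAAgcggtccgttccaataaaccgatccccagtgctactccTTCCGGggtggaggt

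Mrps27: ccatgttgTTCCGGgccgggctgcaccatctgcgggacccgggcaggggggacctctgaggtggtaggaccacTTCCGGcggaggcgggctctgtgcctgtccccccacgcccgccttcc

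Mrpl30: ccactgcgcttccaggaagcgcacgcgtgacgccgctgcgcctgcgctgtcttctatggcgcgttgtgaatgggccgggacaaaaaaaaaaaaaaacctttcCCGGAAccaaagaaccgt

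In Mrpl43 there are 3 matches, the last pair side by side, and in Mrpl22 a close pair lies on opposite strands, pointing away from each other. Of the 75 windows, 26 had a match wholly within these 120 bases, 33 matches in all. Of the other matches, 5 lay farther upstream, 4 ran across the start and 19 lay past it. A match describes letters and shows no binding.

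Other motifs of such genes were rarer, and none of the motifs searched contains another. The core of NRF1, a regulator of respiratory genes, searched as GCATGCGC on both strands, was in 8 windows, or 10.7%, beside 2.71% of all windows. The share was 3.51% for windows of coding genes, 15.9% for the nuclear respiratory chain and 4.55% for the cytosolic ribosomal proteins. The 8 windows were those of Mrpl9, Mrpl33, Mrpl17, Mrpl22, Mrpl10, Mrpl32, Mrpl39 and Mrps18b, and 7 of them also held the ETS core. The YY1 motif, searched as GCCATNTTG, was in 11 windows, or 14.7%, beside 2.51% of all, and 4 of the 11 also held the ETS core. Its share was 2.85% for windows of coding genes, 14.3% for the nuclear respiratory chain and 9.09% for the cytosolic ribosomal proteins. At least 1 of the 3 motifs was in 51 windows, or 68.0%, beside 18.6% of all. CCAAT was about as frequent as elsewhere, in 30 of 75 windows beside 37.4% of all, and TATAAA was in 5 windows, or 6.67%, beside 13.6%. The windows had a median GC content of 58.7%, beside 52.7% for all windows and 56.3% for those of coding genes, and the part of base composition in these shares was not tested.

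Many of the genes start back to back with another gene. Starts were taken here as the outer ends of the annotated genes, and RefSeq starts can lie elsewhere. A coding gene on the opposite strand, pointing away, started within 1000 bases of 18 of the 78 genes, or 23.1%, without overlap. This was so for 6.77% of all coding genes, 9.57% of the detected ones, 8 of 76 cytosolic ribosomal proteins and 25.4% of the nuclear respiratory chain. With overlapping starts included, it was 33 of 78, or 42.3%, beside 10.7% of all coding genes and 15.1% of the detected ones. It was 15 of 76 for the cytosolic ribosomal proteins and 36.6% for the respiratory chain.

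The closest pairs were Mrpl54 with Apba3, whose starts are 26 bases apart, Mrps18c with Helq and Mrps34 with Eme2, each 29 bases apart, and Mrps18b with Ppp1r10, 45 bases apart. In several pairs the partner also serves mitochondria. Mrps12, of the decoding site, lies 172 bases from Sars2, the mitochondrial seryl-tRNA synthetase, with 26.7 ± 0.9 TPM and 5.99 ± 0.08 TPM (SD, n = 2). Mrps27 lies 81 bases from Ptcd2. By the outer ends of the annotated genes, the starts of Mrpl43 and Twnk, the helicase of mitochondrial DNA, overlap. So do those of Mrpl47 and Ndufb5 and of Mrpl36 and Ndufs6, both subunits of respiratory complex I. Mrps11 and Mrpl46 are themselves such a pair, with near-equal levels of 14.9 ± 0.7 TPM and 14.6 ± 0.2 TPM. Their outer ends overlap by 412 bases. The 120 bases before the RefSeq start are chr7:78783090-78783209 (minus) for Mrpl46 and chr7:78783011-78783130 (plus) for Mrps11, so the RefSeq starts do not overlap.

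A shared start did not mean a shared level. Mrpl49 lies 59 bases from Fau, which encodes a protein of the cytosolic ribosome, and had 21.2 TPM beside 384 TPM. Mrpl30, at 56.2 TPM, lies 66 bases from Mitd1, at 3.72 TPM, and Mrpl57, at 24.3 TPM, lies 49 bases from Ska3, at 0.37 TPM. Mrpl32, with 12.4 TPM, lies 75 bases from Psma2, a proteasome subunit, with 26.9 TPM.

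Across the 78 genes, the level was lower where the leading transcript was longer. Spearman rho was -0.36 in the gene table and -0.45 in the kallisto-format table (n = 78 genes of the same libraries, a description only). The leading transcript is that with the highest mean TPM, and TPM divides by length. The part of this in the rho was not tested, and no rho was computed for the other coding genes.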

How the data were processed

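Total RNA-seq of 2 libraries of 1 group was used. The authors deposited, per library, an RSEM-format gene table of expected counts and TPM, an RSEM-format transcript table with the percent each transcript takes of its gene, and a kallisto-format table of estimated counts and TPM, per the file headers. The build is mm10 with annotation M21, per the deposited description, and mm10 is the genome of C57BL/6J, not CAST. For aligner, versions and strand setting: not given in the sources used here. Spike-ins and tRNA count in the total of the deposited TPM.

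Genes were chosen by symbol. Kallisto-format transcripts were summed per gene. Ratios between animals used rounded expected counts, TMM effective sizes (edgeR 4.0.16; DESeq2 1.42.0 and spike-in totals as alternatives) and 0.5 added reads, with Clopper-Pearson intervals of the split (scipy 1.17.1); with 1 group no p-value was computed. The same function was tested on simulated data. Shared sequence was counted as 31-base words of GENCODE transcripts. Motifs were searched in RefSeq windows (GRCm38.p6). Lists: other proteins of this ribosome, translation factors, assembly, aminoacyl-tRNA synthetases, mitochondrial transcription, mitochondrial RNAs, respiratory chain, cytosolic ribosomal proteins (by symbol), choroid plexus, immediate early genes and markers of 4 cell types.

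Full values are given for the 10 highest and 10 lowest genes, the 5 largest ratios at a mean of at least 100 reads, genes that differ 2-fold between tables, genes with a noncoding share of at least 50%, the S18 paralogs, Mrps36 and the middle genes, and for the highest and lowest gene of each list of mitochondrial or ribosomal genes; marker lists are given by counts and medians; pairs of neighbouring genes, pseudogenes and printed promoters were chosen after their values were seen. The genes and lists were chosen with earlier results of these data known.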

Additional observations from a re-analysis of the deposited data

How the results depend on the processing

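With 2 animals of 1 group, no difference between animals is replicated, and the depth of about 500 reads per gene limits single ratios. Detection of all 78 genes, 0 calls between animals and 1 gene different between tables held under every alternative tried. Leaving out 1 animal gave medians of 21.8 and 22.6 TPM. The kallisto-format table gave a median of 23.7 TPM, a large minus small difference of 0.054, a conserved minus mitochondria-specific difference of 0.18 (reversed), gaps of -2.46 to the respiratory chain and -3.32 to the cytosolic ribosome, and an SD of log2 TPM of 0.70. Without Mrpl23 that SD was 0.69. With nuclear coding genes as the total, the median was 49.97 TPM and the share of reads 0.162%. A pseudocount of 1 gave gaps of -2.33 and -3.19, and detected genes only gave -2.41 to the respiratory chain. The median ratio between animals reversed to 0.019 with spike-ins and to 0.056 for TPM, since these move all genes. Added after seeing the data: by expected counts, 11 genes had a noncoding share of at least 50%, 33 genes had a neighbour when overlapping starts counted, and the ratio of Mrpl23 reversed to -0.027 when summed with its pseudogene, while that of Mrpl53 went from -0.26 to -0.12 when summed with Gm42688. Within the last 150 bases of the window TATAAA was in 1 window instead of 5. No paired analysis was possible because there is 1 group only.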
